A study of Homo sapiens with 12 samples.

Results

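The VCaP arm of the study compared a prostate cancer cell line transfected with siRNA against FOXA1 (siFOXA1) with the same line transfected with a non-targeting siRNA (NSI). It was chosen by the sample titles and comprised 6 of the 12 RNA sequencing libraries of the series, 3 siFOXA1 and 3 NSI. The other 6 libraries came from PC3 cells. VCaP is an established human line, grown from prostate cancer that had spread to a vertebra. It responds to androgen, and its ERG gene is fused to TMPRSS2. Both VCaP groups were grown in DMEM with foetal calf serum, received 40 nM of their siRNA by lipid transfection (RNAiMax) and were lysed after 72 hours. The siRNA lowers FOXA1 RNA without removing the gene, and the labels do not give the siRNA sequence or how many siRNAs were used. No androgen or drug was added in either group as far as the labels say. Nothing in the labels says that the replicates were separate cultures, so p-values measure the spread between these libraries only.

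FOXA1 is a forkhead transcription factor that can bind its site in closed chromatin and open it for other factors, and is therefore called a pioneer factor. In prostate luminal cells it binds at enhancers of secretory genes, together with partners such as HOXB13 and GATA2. ERG, an ETS factor normally silent in prostate epithelium, is driven in VCaP by the androgen-responsive TMPRSS2 promoter. The study's title asks how FOXA1 affects splicing factors and splicing; the gene counts give the expression of all genes in the same cells.

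The VCaP libraries held 48187047 to 59839211 counts. Levels below are in CPM, counts scaled to a common library size with TMM factors. The 12 markers of the line, among them ERG, KLK2 and EPCAM, were all tested and summed to 6640 to 6950 CPM in NSI and 4800 to 5600 CPM in siFOXA1. Of 10 leukocyte markers, CD3D and CD2 had no count in any library, and the list summed to 1.03 to 1.45 CPM in NSI and 2.84 to 3.61 CPM in siFOXA1. Most of this rise was in CD14, from a mean of 0.698 to 2.72 CPM. The 6 endothelial markers measured summed to 4.08 to 4.92 CPM and 1.98 to 2.44 CPM, and the 9 fibroblast markers to 11.1 to 20.7 CPM and 1.79 to 7.77 CPM. Most of the endothelial fall was in VWF, from a mean of 4.30 CPM in NSI to 1.88 CPM in siFOXA1. Of 5 erythroid markers HBB and ALAS2 had no count in any library, and the list summed to at most 0.655 CPM. The libraries were made from total RNA, and their makeup differed between the groups. Mitochondrial genes took 3.02% to 3.29% of counts in NSI and 4.04% to 4.69% in siFOXA1. Noncoding small and ribosomal RNA genes took 19.5% to 21.8% in NSI and 22.3% to 26.1% in siFOXA1, and protein-coding genes 68.3% to 70.5% and 61.4% to 65.3%. The part of this difference in the results was not tested. A fit restricted to protein-coding nuclear genes, chosen after seeing the data, called 8565 of 14617 genes, 4288 higher and 4277 lower. In the fit of all genes, 3762 of the 14629 protein-coding genes tested were called higher and 4392 lower. The first principal component, with 78.5% of the variance, separated siFOXA1 from NSI, and the second, with 8.31%, set the replicate 3 libraries of both groups apart from the others. The titles number these libraries 3, and their file headers number them 4.

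FOXA1, the target of the siRNA, lies on the minus strand of chromosome 14 (38059189 to 38064239 on GRCh37, ENSG00000129514.5_2). Its level was 458, 468 and 544 CPM in NSI against 85.2, 73.6 and 83.1 CPM in siFOXA1 (log2 fold change −2.60, SE 0.09, edgeR quasi-likelihood adjusted p 1.84e-07). The siFOXA1 mean was 16.5% of the NSI mean. An exact two-sided permutation test of this gene alone gave 0.1, the lowest p that groups of 3 can reach.

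Partners of FOXA1 at prostate enhancers fell by small amounts, and the luminal factor SPDEF fell strongly. GATA2, a zinc finger partner, fell from 327 ± 3.27 to 241 ± 37.3 CPM (SD, n = 3 each; log2 fold change −0.44, adjusted p 0.00756). HOXB13, a homeobox factor of the prostate, had a log2 fold change of −0.24 (adjusted p 0.0235), a call that was lost without NSI replicate 3 (adjusted p 0.0567), siFOXA1 replicate 1 (0.0586) or siFOXA1 replicate 2 (0.0659) and in the fit of all 12 libraries (0.0761). ERG, under the TMPRSS2 promoter, was at 227, 256 and 231 CPM in NSI against 235, 223 and 216 CPM in siFOXA1, and its groups overlapped (log2 fold change −0.08, SE 0.07, adjusted p 0.372).

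SPDEF, an ETS factor of secretory luminal cells, was at 190.4, 158 and 186 CPM in NSI against 23.2, 17.9 and 22.7 CPM in siFOXA1. Its log2 fold change was −3.07 (SE 0.12, adjusted p 2.17e-07), and the groups lay far apart. CREB3L4, a membrane-bound factor of the CREB family that prostate cells express, fell from 68.3 ± 5.6 to 21.1 ± 1.6 CPM (SD, n = 3 each). In the list of luminal factors and steroid receptors, 33 genes were tested and 13 fell (39.4%), 10 rose (30.3%) and 10 did not pass the test. Over all 22925 genes tested, 23.3% fell and 22.5% rose. The list had a median log2 fold change of −0.03 against 0.02 over all genes tested. Without NSI replicate 1, or without siFOXA1 replicate 1, 6 rather than 10 rose.

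The receptors of progesterone, mineralocorticoids and glucocorticoids were called higher. PGR, the progesterone receptor, was at 5.93, 7.53 and 6.13 CPM in NSI against 17.1, 20.2 and 22.5 CPM in siFOXA1 (log2 fold change 1.61, SE 0.13, adjusted p 9.1e-06). NR3C2, the mineralocorticoid receptor, rose from 12.4 ± 2.21 to 19.5 ± 1.05 CPM (SD, n = 3 each; log2 fold change 0.66, adjusted p 0.00179). NR3C1, the glucocorticoid receptor, was at 13.6, 14.4 and 13.6 CPM in NSI against 18.1, 17.2 and 15.7 CPM in siFOXA1. The groups did not overlap, the log2 fold change was 0.30 (adjusted p 0.0111), and the call was lost without NSI replicate 1 (adjusted p 0.0526) or siFOXA1 replicate 1 (0.0547) and in the fit of all 12 libraries (0.0524). KLF4, a zinc finger factor of differentiating epithelium, rose from 5.6 ± 1.34 to 14.6 ± 2.05 CPM (SD, n = 3 each), while its relative KLF5 fell from 8.42 ± 1.35 to 5.11 ± 0.995 CPM.

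**Figure D1:**
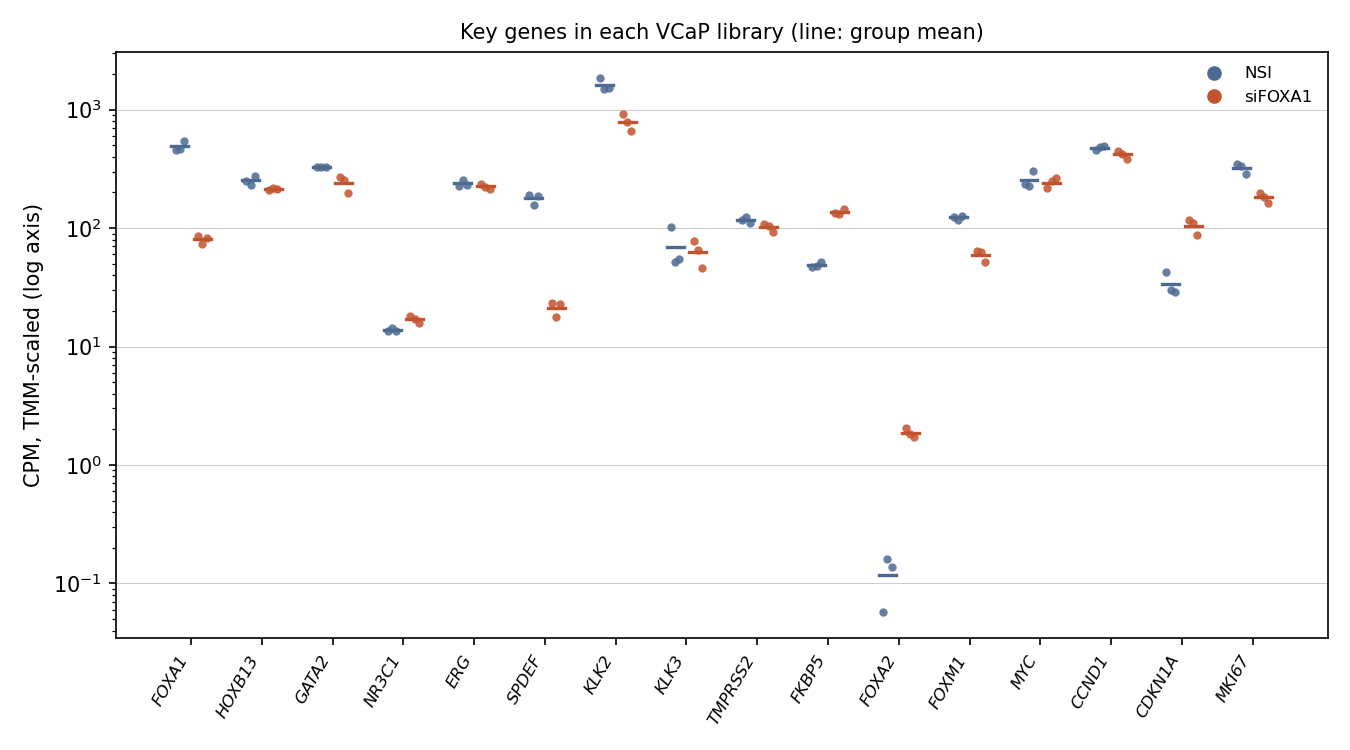
Level of 16 genes in each library, in CPM on a log axis; blue points are the 3 NSI libraries, orange points the 3 siFOXA1 libraries, and short lines the group means. FOXA1 and SPDEF are lower in every siFOXA1 library, ERG and MYC overlap between the groups, and FKBP5, CDKN1A and FOXA2 are higher in every siFOXA1 library.

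Within the forkhead family, 23 of 39 genes were tested, of which 8 fell (34.8%), FOXA1 included, and 6 rose (26.1%), against the same shares over all genes; without NSI replicate 1, 3 rose. FOXO1, a factor held out of the nucleus by AKT, rose from 1.86 ± 0.168 to 6.63 ± 0.182 CPM (SD, n = 3 each; log2 fold change 1.83, SE 0.11, adjusted p 2e-06). FOXO3 was at a mean of 148 CPM (NSI) and 141 CPM (siFOXA1) and did not pass (adjusted p 0.37). FOXP1 fell from 173 ± 13 to 102 ± 3.61 CPM and FOXM1, which drives mitotic genes, from 123 ± 5.35 to 59.2 ± 6.55 CPM (SD, n = 3 each). FOXA2, the closest relative of FOXA1, rose from 0.119 to 1.86 CPM, and FOXA3 stayed under the filter at 0.0441 CPM in NSI and 0.0196 CPM in siFOXA1. FOXO6 and FOXC1, singled out after their values were seen, also rose, from 0.368 to 1.49 CPM and from 0.153 to 0.327 CPM.

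Across all genes, 10501 of the 22925 tested were called at an adjusted p under 0.05, or 45.8%. Of these, 5160 were higher (22.5% of genes tested) and 5341 lower (23.3%) in siFOXA1. The median log2 fold change over all genes tested was 0.02, and the central 90% lay between −0.98 and 1.37. With a log2 fold change of at least 1 in addition, 1763 genes were higher (7.69% of genes tested) and 1089 lower (4.75%). The counts of members given for each gene list stand against these shares, and the lists were drawn up with earlier results of these data known.

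**Figure D2:**
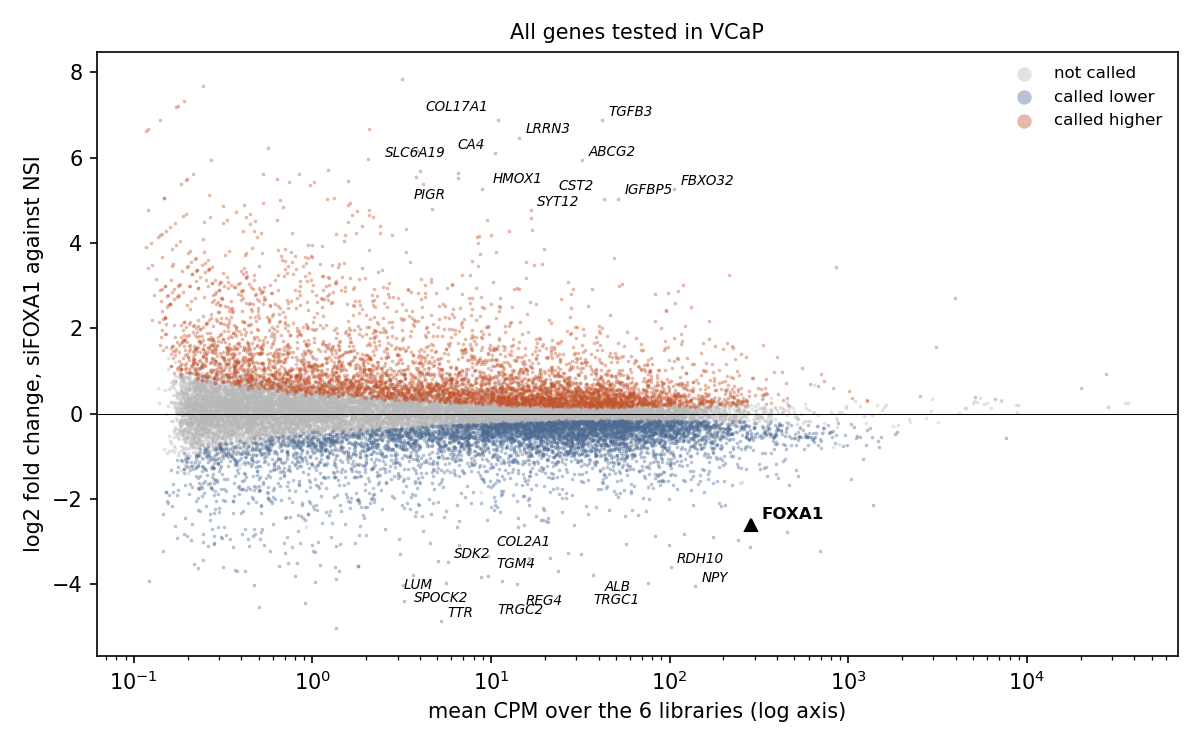
Log2 fold change of siFOXA1 against NSI for all 22925 genes tested, against the mean CPM over the 6 libraries on a log axis; orange points are called higher, blue points called lower and grey points not called. The black triangle is FOXA1, and the names mark the 12 largest rises and 12 largest falls among called genes whose 6 libraries averaged 5 CPM or more and whose groups did not overlap.

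The largest rises included genes of membrane and secreted proteins that NSI cells hardly expressed. COL17A1, a transmembrane collagen of hemidesmosomes, was at 0.212, 0.199 and 0.139 CPM in NSI against 21.2, 22.1 and 22.2 CPM in siFOXA1. TGFB3, a ligand of the transforming growth factor family, was at 0.751, 0.677 and 0.695 CPM and 71.3, 85.1 and 93.6 CPM. ABCG2, an efflux pump for drugs and urate, was at 1.39, 0.897 and 0.851 CPM in NSI against 65.6, 62.5 and 63.4 CPM in siFOXA1 (log2 fold change 5.93, SE 0.13, adjusted p 1.89e-08). For each of these genes all siFOXA1 libraries lay many fold above all NSI libraries. CA4, a membrane-anchored carbonic anhydrase, rose from 0.298 ± 0.045 to 20.9 ± 0.527 CPM, and SLC6A19, a neutral amino acid transporter of gut and kidney, from 0.261 ± 0.165 to 12.9 ± 0.817 CPM (SD, n = 3 each). IGFBP5, a binding protein of insulin-like growth factors, rose from 3.04 ± 0.54 to 99.9 ± 21.3 CPM, and CST2, a secreted cysteine protease inhibitor, from 2.53 ± 0.894 to 83.3 ± 32.1 CPM. CST2 was lowest in siFOXA1 replicate 3, at 46.3 CPM against 99.7 and 104 CPM in the other siFOXA1 libraries. CST2 belongs to a family of close paralogs, between which reads may be divided. SYT12, a synaptotagmin, rose from 1.19 ± 0.244 to 32.3 ± 5.56 CPM.

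The largest falls also included genes of secreted proteins. NPY, which encodes neuropeptide Y and is high in many prostate tumours, was at 309, 229 and 248 CPM in NSI against 16.2, 10.9 and 20.8 CPM in siFOXA1 (log2 fold change −4.04, SE 0.22, adjusted p 1.24e-06). RDH10, which oxidises retinol on the way to retinoic acid, was at 197, 193 and 173 CPM in NSI against 18.7, 15.2 and 12.7 CPM in siFOXA1. The groups of both genes were separated by a wide gap. TGM4, the transglutaminase that prostate secretes into semen, fell from 17.9 ± 4.48 to 1.28 ± 0.493 CPM, and SPOCK2, a secreted proteoglycan, from 16.4 ± 2.57 to 1.17 ± 0.288 CPM (SD, n = 3 each). COL2A1, the collagen of cartilage, fell from 44.3 ± 6.43 to 3.42 ± 0.137 CPM, and SDK2, an adhesion protein of synapses, from 10.5 ± 0.425 to 0.942 ± 0.31 CPM. LUM, a proteoglycan that also stands in the fibroblast marker list, was at 13.3, 10.1 and 8.01 CPM in NSI against 0.715, 0.716 and 0.571 CPM in siFOXA1. It made up most of the fall of that list's summed level.

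**Figure D3:**
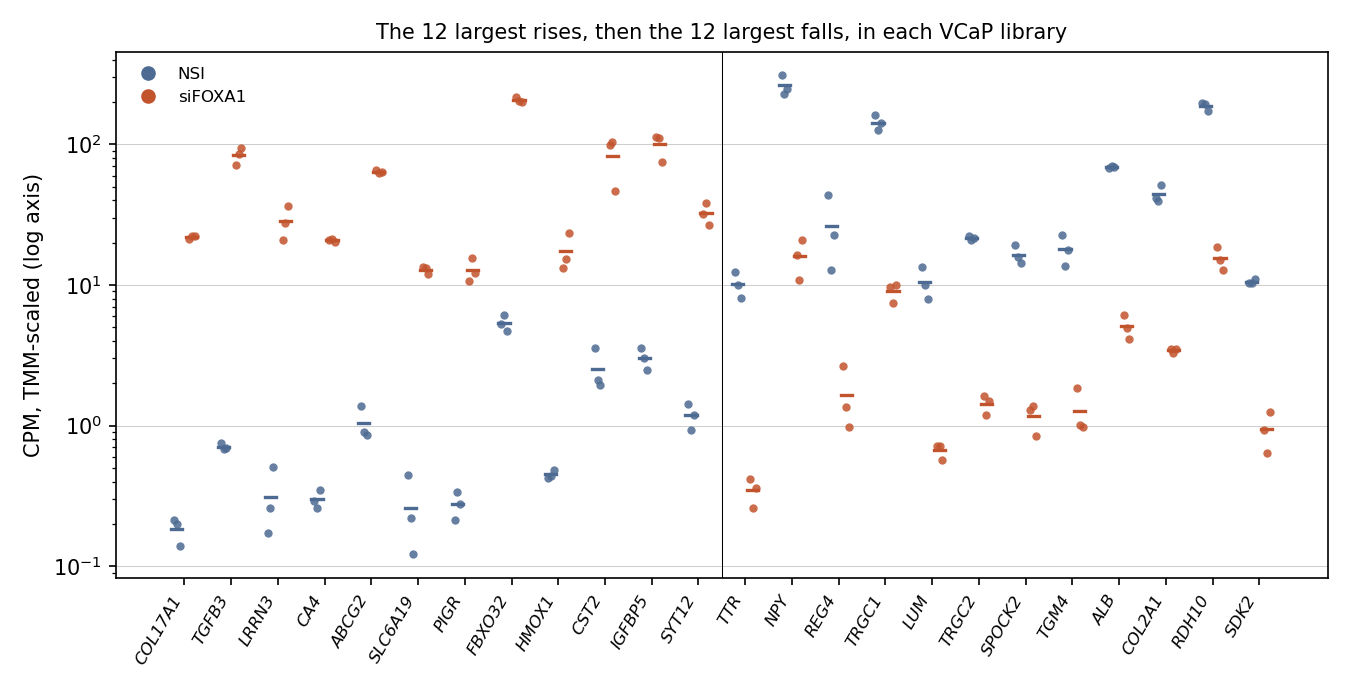
Level of the 12 genes with the largest rises (left of the vertical line) and the 12 with the largest falls (right) in each library, in CPM on a log axis; blue points are NSI, orange points siFOXA1 and short lines group means. No gene of either set overlaps between the groups, as the rule for choosing them required.

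The androgen response fell in part. Of 45 tested members of the androgen response list, genes that androgen induces in prostate cells, 27 fell, 7 rose and 11 did not pass, against 23.3% of all genes lower and 22.5% higher. The list's median log2 fold change was −0.59 against 0.02 over all genes tested. This median moved to −0.45 over protein-coding nuclear genes only, −0.43 without NSI replicate 1 and −0.44 without siFOXA1 replicate 3. Of the 27 that fell, 14 had a log2 fold change of −1 or less. ACPP, the secreted prostatic acid phosphatase, was at 2275, 2366 and 2125 CPM in NSI against 559, 470.1 and 496 CPM in siFOXA1 (log2 fold change −2.15, SE 0.09, adjusted p 3.78e-07). KLK2, a kallikrein protease, was at 1844, 1500.3 and 1533 CPM and 912, 779 and 657 CPM (log2 fold change −1.05, SE 0.13, adjusted p 0.000157). SLC45A3, the prostate membrane protein prostein, was at 159, 118 and 158 CPM in NSI against 20, 18.6 and 21.4 CPM in siFOXA1 (log2 fold change −2.86, SE 0.12, adjusted p 3.43e-07).

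KLK3, which encodes prostate-specific antigen, did not follow KLK2. It was at 102, 51.4 and 54.6 CPM in NSI against 78.2, 65.3 and 46.4 CPM in siFOXA1, with overlapping groups and a log2 fold change of −0.13 (adjusted p 0.711). NSI replicate 1 was the highest library, and without it the log2 fold change was 0.24 (adjusted p 0.339). TMPRSS2, the protease gene whose promoter drives ERG in VCaP, was at 118, 123 and 111 CPM in NSI against 108, 105 and 92.7 CPM in siFOXA1. Its call was marginal (log2 fold change −0.21, adjusted p 0.0474) and did not hold when NSI replicate 1 or 2 (0.0946 and 0.121) or siFOXA1 replicate 2 or 3 (0.0865 and 0.129) was left out, nor with 5 other settings (0.063 to 0.301). TRGC1 and TRGC2, constant segments of the T cell receptor gamma locus from which prostate cells make an androgen-dependent transcript, fell by 3.98 and 3.91 on the log2 scale. They are near-identical copies, so their reads may be divided between them, and the T cell markers CD3D and CD2 had no count in any library, while CD3E had 2 counts in NSI and 2 in siFOXA1.

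Members that rose included genes that glucocorticoids also induce. FKBP5, a co-chaperone of steroid receptors, was at 46.5, 48.2 and 51.5 CPM in NSI against 135, 130.3 and 144 CPM in siFOXA1 (log2 fold change 1.49, SE 0.07, adjusted p 4.43e-07). SGK1, a kinase classically induced by glucocorticoids and mineralocorticoids, was at 2.04, 1.93 and 2.47 CPM and 12.8, 12.6 and 13.8 CPM (log2 fold change 2.60, SE 0.11, adjusted p 3.83e-07). All siFOXA1 libraries were above all NSI libraries for both genes, which the rule for naming called rises required. NDRG1, a stress-responsive gene, rose from 822 ± 39.6 to 1189 ± 34.3 CPM, and ALDH1A3, a retinal dehydrogenase, from 29.7 ± 1.74 to 48.5 ± 3.14 CPM (SD, n = 3 each). MAF, a leucine zipper factor, rose from 6.64 ± 0.906 to 11.8 ± 2 CPM.

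**Figure D4:**
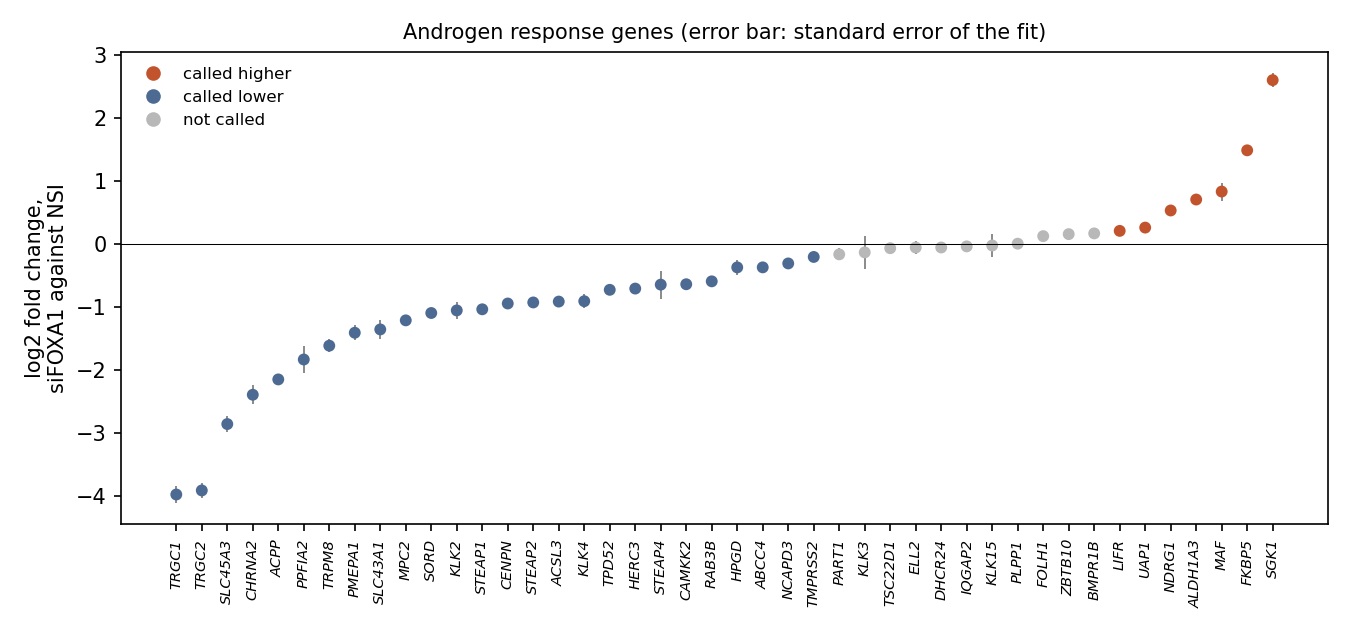
Log2 fold change of siFOXA1 against NSI for 44 of the 45 tested androgen response genes, in order of their change, with the standard error of the fit as bars; orange points are called higher, blue points called lower and grey points not called. The points run from −3.98 for TRGC1 to 2.60 for SGK1, and KLK3 and TMPRSS2 lie near 0.

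Of 29 tested genes of steroid metabolism, 15 rose, 8 fell and 6 did not pass, and 6 of the 8 that fell were of 1 enzyme family. Glucuronosyltransferases of the UGT2B cluster on chromosome 4, some of which inactivate androgens by adding glucuronic acid, all fell where tested (UGT2B28 was under the filter). UGT2B15 was at 31.4, 41.2 and 32.8 CPM in NSI against 7.66, 6.58 and 5.05 CPM in siFOXA1 (log2 fold change −2.45, SE 0.15, adjusted p 2.65e-06). UGT2B4 fell from 6.06 ± 0.241 to 0.373 ± 0.0963 CPM, UGT2B11 from 2.53 ± 0.75 to 0.171 ± 0.129 CPM and UGT2B10 from 3.5 ± 0.647 to 0.486 ± 0.176 CPM (SD, n = 3 each). UGT2B17 and UGT2B7, outside the rule for named genes, fell by 1.87 and 1.25 on the log2 scale. These paralogs are alike in sequence, and reads may be divided between them.

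Several other members of the list rose, among them enzymes that make, interconvert or conjugate steroids. HSD3B1, which converts dehydroepiandrosterone to androstenedione, was at 0.347, 0.159 and 0.139 CPM in NSI against 4.76, 4.83 and 4.09 CPM in siFOXA1 (log2 fold change 4.40, SE 0.25, adjusted p 1.43e-06). SULT2A1, which sulphates dehydroepiandrosterone, rose from 0.0705 ± 0.0329 to 3.1 ± 0.593 CPM, and AKR1C3, which reduces androstenedione to testosterone, from 28.5 ± 1.6 to 66 ± 6.56 CPM (SD, n = 3 each). AKR1C1 and AKR1C2, close paralogs of AKR1C3, rose by 2.80 and 1.52 on the log2 scale. UGT1A6 rose from 0.176 to 2.02 CPM, but 57.6% of its exon length overlaps other genes of the UGT1A locus on the same strand. HSD17B2, which inactivates testosterone, and CYP3A5, which oxidises it, were singled out after their values were seen and rose from 0.73 to 4.92 CPM and from 0.135 to 1.69 CPM.

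UGT2B15 and NTRK2, the neurotrophin receptor described below, were among the named genes with a match to the forkhead letters TGTTTAC (either strand) before their start. Their RefSeq promoters (GRCh38.p14; the counts are on GRCh37) are shown because they put the motif beside a fall and a rise. Capitals mark the match, and the stretches are the 250 bases before the start, 5′ to 3′ in the direction of the gene, at chr4:68670653-68670902, minus strand for UGT2B15 and chr9:84669056-84669305, plus strand for NTRK2.
UGT2B15: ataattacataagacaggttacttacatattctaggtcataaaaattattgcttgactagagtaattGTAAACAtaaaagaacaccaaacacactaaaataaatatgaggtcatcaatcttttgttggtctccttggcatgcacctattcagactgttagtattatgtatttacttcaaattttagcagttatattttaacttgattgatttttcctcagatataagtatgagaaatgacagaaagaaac
NTRK2: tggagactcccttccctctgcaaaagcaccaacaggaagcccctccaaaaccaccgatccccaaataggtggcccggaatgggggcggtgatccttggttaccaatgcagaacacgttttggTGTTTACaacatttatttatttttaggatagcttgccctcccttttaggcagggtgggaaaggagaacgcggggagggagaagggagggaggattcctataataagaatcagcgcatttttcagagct
NTRK2 has several starts in the table, and 1 is shown. The match begins 183 bases before the start in UGT2B15, where it reads on the opposite strand, and 128 bases before it in NTRK2. Of the 300-base windows (250 before to 50 after the start) of genes tested, 2.64% held these letters, against 2.14% of windows of genes called lower (95% Wilson interval 1.78% to 2.57%) and 2.98% of genes called higher (2.53% to 3.50%). A match in such a window is a description of the letters and does not show binding.

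Basal and hemidesmosome genes rose more often than they fell. Of 26 tested members, 14 rose, 5 fell and 7 did not pass, with a median log2 fold change of 0.59 against 0.02 over all genes tested. Limiting the fit to genes with at least 1 CPM in 3 libraries left 9 that rose and a median of 0.17. Among the anchoring proteins, LAMB3, a laminin chain of the basement membrane, was at 0.501, 0.558 and 0.486 CPM in NSI against 3.57, 4.81 and 3.43 CPM in siFOXA1 (log2 fold change 2.93, SE 0.19, adjusted p 2.76e-06). ITGB4, the integrin that joins COL17A1 in hemidesmosomes, rose from 2.9 ± 0.525 to 8.27 ± 1.14 CPM (SD, n = 3 each). LAMA3, a laminin chain that pairs with LAMB3, fell from 216 ± 34.1 to 125 ± 2.84 CPM, so these chains moved in opposite directions. CD44, a hyaluronan receptor of basal cells, was at 4.93, 4.96 and 6.22 CPM in NSI against 23.3, 23.6 and 24.8 CPM in siFOXA1 (log2 fold change 2.15, SE 0.10, adjusted p 5.18e-07).

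Defining basal genes were low in both groups. TP63, the master factor of basal cells, was at 0.0963, 0.12 and 0.104 CPM in NSI against 0.0992, 0.179 and 0.209 CPM in siFOXA1, under the filter, and KRT5 was not tested either. KRT14 fell from 2.29 to 1.19 CPM (adjusted p 0.0215), a call lost without NSI replicate 1 (adjusted p 0.0796) or siFOXA1 replicate 3 (0.0558). PKP1, a desmosome protein of stratified epithelium, fell from 122 ± 11.5 to 30.6 ± 0.409 CPM (SD, n = 3 each). EGFR, the receptor of epidermal growth factor, fell from 34.8 ± 2.61 to 21.8 ± 3.49 CPM.

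Among luminal keratins and junction proteins, 18 of 41 rose, 12 fell and 11 did not pass. CDH1, which encodes E-cadherin, was at 235, 235 and 239 CPM in NSI against 270.5, 256 and 230.4 CPM in siFOXA1 and did not pass (log2 fold change 0.09, adjusted p 0.327). JUP, the plakoglobin that links cadherins to the cytoskeleton, rose from 158 ± 14.8 to 317 ± 19.1 CPM, and CGN, a tight junction adaptor, from 49.5 ± 2.02 to 110.2 ± 5.61 CPM (SD, n = 3 each). CLDN1, a sealing claudin, rose from 0.95 ± 0.103 to 3.27 ± 0.49 CPM. DSG2 and DSC2, cadherins of desmosomes, fell from 137 to 65.9 CPM and from 220.3 to 125 CPM. ESRP1 and ESRP2, epithelial splicing regulators, fell from 191 ± 1.48 to 109 ± 7.44 CPM and from 83.5 ± 2 to 55.5 ± 2.48 CPM.

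Of the secretory genes of gut, liver and airway, which FOXA factors help to switch on during endoderm development, 18 of 46 were tested, 9 rose and 8 fell. Among those that fell were the liver products ALB and TTR. ALB, encoding serum albumin, was at 68.2, 69.9 and 69.2 CPM in NSI against 6.13, 4.93 and 4.13 CPM in siFOXA1 (log2 fold change −3.77, SE 0.12, adjusted p 9.67e-08). TTR, the carrier of thyroxine, fell from 10.2 to 0.346 CPM, and REG4, a secreted lectin of the gut, from 26.3 to 1.65 CPM. REG4 varied widely in NSI, at 43.3, 12.8 and 22.8 CPM. All of these lay above all siFOXA1 libraries, which the rule for naming called falls required. TFF1, a trefoil peptide of mucous cells, fell from 1.96 ± 0.349 to 0.124 ± 0.0646 CPM (SD, n = 3 each), and AGR2, a protein disulphide isomerase of secretory cells, from 247 ± 38.8 to 138 ± 40.5 CPM.

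Other members of the list rose. PIGR, which carries antibodies across epithelia, was at 0.212, 0.339 and 0.278 CPM in NSI against 10.6, 15.4 and 12.2 CPM in siFOXA1 (log2 fold change 5.52, SE 0.21, adjusted p 2.18e-07). AGR3 rose from 2.68 ± 0.799 to 15.1 ± 2.73 CPM although it is the neighbour and close relative of AGR2. SCGB2A1, a secretoglobin, rose from 0.813 ± 0.0312 to 7.27 ± 0.879 CPM, and GCNT3, a mucin glycosyltransferase, from 0.571 ± 0.144 to 2.59 ± 0.169 CPM (SD, n = 3 each). The list's median log2 fold change, 0.40, turned to −0.44 without siFOXA1 replicate 3 and to −0.04 with the filter of at least 1 CPM in 3 libraries.

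Neuroendocrine and neuronal genes did not move together. Of 34 tested, 12 fell, 8 rose and 14 did not pass. INSM1, a zinc finger factor of neuroendocrine differentiation, was at 5.89, 6.26 and 7.17 CPM in NSI against 1.63, 1.29 and 1.45 CPM in siFOXA1 (log2 fold change −2.14, SE 0.13, adjusted p 2.46e-06). NCAM1, a neural adhesion molecule, fell from 2.89 ± 0.344 to 0.717 ± 0.112 CPM, and SRRM4, a neuronal splicing factor, from 7.05 ± 0.718 to 4.8 ± 0.53 CPM (SD, n = 3 each). The SRRM4 call was lost in the fit of all 12 libraries (adjusted p 0.102). The granule markers CHGA, at a mean of 16.1 CPM (NSI) and 14.5 CPM (siFOXA1), and SYP, at a mean of 20.4 CPM (NSI) and 17.6 CPM (siFOXA1), did not pass (adjusted p 0.477 and 0.149). The sign for CHGA turned to 0.04 without NSI replicate 3, and SYP was called lower without siFOXA1 replicate 3 (adjusted p 0.0231) and with the replicate block (0.0353). CHGB, the related granule protein, rose from 17.9 ± 1.68 to 30.3 ± 3.05 CPM, and SYT4, a synaptotagmin, from 29.8 ± 4.47 to 59.4 ± 9.3 CPM. LRRN3, a neuronal leucine-rich repeat protein, rose most, from 0.312 ± 0.172 to 28.4 ± 7.97 CPM.

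RNA of genes for signalling by transforming growth factors and bone morphogenetic proteins (BMP) changed in both directions. Of 50 tested genes, 19 rose, 14 fell and 17 did not pass. Of the ligands, TGFB3 rose as given above, while INHBB, which forms activin B, was at 5.51, 5.3 and 8.23 CPM in NSI against 1.23, 1.09 and 1.28 CPM in siFOXA1 (log2 fold change −2.40, SE 0.20, adjusted p 1.18e-05). LTBP1, which stores latent ligand in the matrix, fell from 62.8 ± 12.4 to 23.3 ± 2.17 CPM, and GREM1, a secreted BMP antagonist, from 17 ± 0.588 to 7.8 ± 0.813 CPM (SD, n = 3 each). The coreceptor TGFBR3 rose from 2.91 ± 0.438 to 8.32 ± 0.63 CPM. The receptors TGFBR1 and TGFBR2, chosen after their values were seen, did not pass, with log2 fold changes of −0.08 and −0.13.

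Of the targets in the list, some rose and some fell. ID1, a BMP target that blocks basic helix-loop-helix factors, was at 23.5, 11.3 and 17.4 CPM in NSI against 57.5, 44.5 and 46.2 CPM in siFOXA1 (log2 fold change 1.50, SE 0.22, adjusted p 0.000419). SMAD6, the inhibitory SMAD of the BMP branch, rose from 4.54 ± 0.887 to 11.1 ± 1.16 CPM (SD, n = 3 each). PMEPA1, a target of both androgen and transforming growth factor that dampens the latter, was at 542, 496 and 689 CPM in NSI against 233, 203 and 214 CPM in siFOXA1 (log2 fold change −1.41, SE 0.12, adjusted p 1.62e-05). All siFOXA1 libraries were below all NSI libraries for PMEPA1, and above them for ID1 and SMAD6, as the rule for naming called changes required.

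Among 48 tested receptor tyrosine kinases and ligands, 20 rose, 16 fell and 12 did not pass. HGF, the hepatocyte growth factor, was at 48.5, 53.3 and 70.9 CPM in NSI against 5.48, 4.61 and 7.54 CPM in siFOXA1 (log2 fold change −3.29, SE 0.19, adjusted p 1.68e-06). FGF13, an intracellular member of the fibroblast growth factor family, fell from 58.7 ± 6.33 to 11.5 ± 1.97 CPM, EPHB3, an ephrin receptor, from 23.3 ± 1.8 to 7.82 ± 0.72 CPM and FLT4, a receptor of lymphatic growth factors, from 4.49 ± 0.419 to 1.57 ± 0.296 CPM (SD, n = 3 each). KITLG, the ligand of KIT, rose from 16.7 ± 2.43 to 64 ± 2.66 CPM, and PDGFC, a platelet-derived growth factor, from 2.99 ± 0.279 to 19.6 ± 2.06 CPM. NTRK2, the receptor of brain-derived neurotrophic factor, was at 4.35, 4.34 and 1.91 CPM in NSI against 11.1, 13.5 and 12.1 CPM in siFOXA1, and MERTK, a receptor for uptake of dying cells, rose from 17.3 ± 0.819 to 59.7 ± 4.08 CPM.

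Mesenchymal genes and collagens showed no common direction. Of 16 tested mesenchymal genes, 6 rose and 7 fell, and the median of −0.35 turned to 0.47 with DESeq2, which keeps more low genes. With the filter of at least 1 CPM in 3 libraries the median was −0.78 and 3 rose. TNC, a matrix glycoprotein, fell from 51.9 ± 6.46 to 17.8 ± 1.12 CPM, CDH2, which encodes N-cadherin, from 2.28 ± 0.564 to 0.713 ± 0.133 CPM and FN1, fibronectin, from 28.3 ± 5.39 to 15.6 ± 4.13 CPM (SD, n = 3 each). VIM, the vimentin filament gene, rose from 0.257 ± 0.148 to 0.687 ± 0.135 CPM but stayed under 1 CPM in every library. Of 29 tested collagen chains, 7 rose, 9 fell and 13 did not pass, with COL5A2 falling from 49 ± 14.3 to 5.06 ± 1.58 CPM and COL12A1 rising from 2.88 ± 0.796 to 7.04 ± 0.648 CPM. The median of the collagens, −0.22, became 0.01 without NSI replicate 1. The summed fibroblast markers fell as given above, mostly through LUM. Of their collagens, COL1A1 and COL1A2 had a lower mean in siFOXA1 and COL3A1 a higher one, and libraries of the same group differed widely. COL1A2 was at 2.21, 0.139 and 1.01 CPM in NSI against 0.119, 2.23 and 0.152 CPM in siFOXA1. The part of the fibroblast markers in these counts was not tested.

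By the share of members called in 1 direction, mitosis, DNA replication and histones led the 31 lists. Of 52 tested genes of mitosis and the spindle, 49 fell, 0 rose and 3 did not pass, against 23.3% of all genes lower, and their median log2 fold change was −0.84. Of 50 DNA replication genes, 48 fell and 0 rose, with a median of −0.68. The sizes were mostly moderate: 11 and 6 members of these lists reached a log2 fold change of −1. PLK1, a kinase of mitotic entry, was at 32.9, 31.2 and 31.4 CPM in NSI against 16, 15.3 and 10.6 CPM in siFOXA1 (log2 fold change −1.19, SE 0.13, adjusted p 8.75e-05). CDC20, the activator of the anaphase-promoting complex, was at 58.6, 48.8 and 51.3 CPM and 26.3, 26.3 and 18.1 CPM (log2 fold change −1.17, SE 0.14, adjusted p 0.000112). CDCA8, a subunit of the chromosomal passenger complex, fell from 52.1 ± 1.48 to 21.7 ± 4.38 CPM (SD, n = 3 each). MKI67, the proliferation marker Ki-67, fell from 323 ± 33.1 to 181 ± 17.3 CPM, and TOP2A, a topoisomerase, from 664 ± 18.7 to 479.8 ± 64.7 CPM.

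RRM2, the subunit of ribonucleotide reductase that limits nucleotide supply in S phase, was at 125, 123 and 120.1 CPM in NSI against 29.8, 24.7 and 21.1 CPM in siFOXA1 (log2 fold change −2.29, SE 0.11, adjusted p 6.71e-07). Of its exon length, 27.9% overlaps another gene on the same strand. TYMS, which makes thymidylate, fell from 58.8 ± 3.5 to 23.1 ± 1.41 CPM, PRIM1, a primase subunit, from 38.4 ± 1.99 to 14.9 ± 0.87 CPM and the helicase subunit MCM7 from 193 ± 19 to 110.1 ± 2.04 CPM (SD, n = 3 each). Of 40 homologous recombination genes, 21 fell, 1 rose and 18 did not pass, and 0 reached a log2 fold change of −1. The 1 that rose was ATR, a replication stress kinase named after its values were seen (log2 fold change 0.17, SE 0.05, adjusted p 0.026). Without NSI replicate 1 or 3, or without siFOXA1 replicate 1 or 2, 0 rose, and without NSI replicate 2 or with the replicate block 2 rose. CHEK1, the S phase checkpoint kinase, fell from 57.1 ± 2.61 to 29.6 ± 1.41 CPM, while ATM, the kinase of double-strand breaks, was at a mean of 146 CPM (NSI) and 166 CPM (siFOXA1) and did not pass (adjusted p 0.0581). ATM was called higher without NSI replicate 2 (0.0408), with upper-quartile factors (0.0295), with the 1 CPM filter (0.0368) and over protein-coding genes only (0.0232).

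Replication-dependent histones, whose messages are made in S phase and end in a stem loop without a poly(A) tail, fell further. Of 63 tested histone genes of the clusters, 59 fell, 0 rose and 4 did not pass, with a median log2 fold change of −1.37, and 53 fell by at least 1. HIST4H4 was at 186, 218 and 256 CPM in NSI against 53.4, 45.2 and 51.3 CPM in siFOXA1 (log2 fold change −2.14, SE 0.12, adjusted p 1.28e-06). The linker histones HIST1H1E and HIST1H1C fell from 589 ± 57.8 to 275 ± 21.4 CPM and from 596 ± 43.9 to 284 ± 50.2 CPM (SD, n = 3 each). HIST1H2BB fell from 25.9 ± 2.91 to 6.57 ± 1.51 CPM. Histone genes have near-identical copies, so single values are uncertain, but the 59 calls include H1, H2A, H2B, H3 and H4 genes.

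Regulators of G1, the phase before DNA synthesis, mostly fell. Of 32 tested, 18 fell, 5 rose and 9 did not pass. CDKN1A, which encodes the CDK inhibitor p21, was at 42.9, 29.8 and 28.6 CPM in NSI against 116, 111 and 87.3 CPM in siFOXA1 (log2 fold change 1.64, SE 0.16, adjusted p 3.92e-05). CDKN2B, the inhibitor p15, rose from 0.78 ± 0.0622 to 2.5 ± 0.225 CPM (SD, n = 3 each). CDKN1B, the inhibitor p27, was at a mean of 55.7 CPM (NSI) and 50.2 CPM (siFOXA1) and CCND1, cyclin D1, at a mean of 478 CPM (NSI) and 421 CPM (siFOXA1), and neither passed (adjusted p 0.0726 and 0.0792). CDKN1B was called lower without siFOXA1 replicate 1 (adjusted p 0.0463). The E2F factors E2F1 and E2F2 fell from 55.4 ± 4.5 to 38.2 ± 1.68 CPM and from 27.9 ± 2.33 to 11.4 ± 1.11 CPM, the cyclin CCNE2 from 32.5 ± 3.2 to 15.1 ± 2.16 CPM and CDK2 from 43.8 ± 3.11 to 23.6 ± 0.898 CPM. MYC was at 235, 227 and 304 CPM in NSI against 216, 249 and 262 CPM in siFOXA1 and did not pass (adjusted p 0.643; the sign turned to 0.07 without NSI replicate 3), while its relative MYCL fell from 5.49 ± 1.14 to 2.09 ± 0.197 CPM.

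Promoters of many cell cycle genes hold 1 or both of 2 known elements, the CCAAT box and the cell cycle homology region (CHR, letters TTTGAA). The 250 bases before the start of 3 mitotic genes and 1 histone gene that the rule named are shown because the letters of both elements occur in each of them. They are RefSeq sequences on GRCh38.p14, at chr1:43358731-43358980, plus strand (CDC20), chr16:23678639-23678888, plus strand (PLK1), chr1:37692266-37692515, plus strand (CDCA8) and chr6:26043714-26043963, minus strand (HIST1H2BB, now H2BC3). Capitals mark CCAAT and TTTGAA on either strand; in CDCA8 the last A of 1 TTTGAA is also the first letter of ATTGG, the CCAAT box read on the other strand.
CDC20: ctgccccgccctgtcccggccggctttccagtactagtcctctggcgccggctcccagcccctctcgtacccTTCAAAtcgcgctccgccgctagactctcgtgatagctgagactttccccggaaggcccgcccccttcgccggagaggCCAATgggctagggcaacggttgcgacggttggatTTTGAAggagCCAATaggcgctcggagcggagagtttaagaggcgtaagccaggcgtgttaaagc
PLK1: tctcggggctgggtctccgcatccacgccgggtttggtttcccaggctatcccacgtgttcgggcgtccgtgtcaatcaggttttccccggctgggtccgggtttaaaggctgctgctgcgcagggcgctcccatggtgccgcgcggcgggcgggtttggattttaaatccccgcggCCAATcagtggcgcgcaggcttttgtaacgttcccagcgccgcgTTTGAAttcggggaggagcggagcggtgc
CDCA8: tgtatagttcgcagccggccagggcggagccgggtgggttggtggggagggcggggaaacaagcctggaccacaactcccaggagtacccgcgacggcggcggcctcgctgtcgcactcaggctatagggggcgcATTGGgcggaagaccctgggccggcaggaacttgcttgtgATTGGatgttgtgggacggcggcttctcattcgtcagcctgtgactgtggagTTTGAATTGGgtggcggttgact
HIST1H2BB: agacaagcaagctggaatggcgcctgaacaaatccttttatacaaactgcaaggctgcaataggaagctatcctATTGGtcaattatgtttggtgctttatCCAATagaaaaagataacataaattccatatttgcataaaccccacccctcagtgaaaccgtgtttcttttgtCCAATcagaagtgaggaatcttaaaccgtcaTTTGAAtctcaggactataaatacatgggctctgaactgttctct
The TTTGAA nearest the start begins 65 bases before it in CDC20, 29 in PLK1, 23 in CDCA8 and 45 in HIST1H2BB. Among other named falls of the mitosis and histone lists, CDCA3 and HIST1H2BM held no TTTGAA in the 250 bases and HIST4H4 no CCAAT. In 300-base windows, TTTGAA was in 66.0% of the 53 windows of tested mitosis genes (Wilson 95% interval 52.6% to 77.3%) and 10.7% of the windows of all genes tested. TTTGAA was in 33.3% of the 54 histone windows and in 5.08% of the 59 windows of DNA replication genes (1.74% to 13.9%), a list that fell as uniformly. CCAAT was in 77.4% of the mitosis windows, 85.2% of the histone windows, 54.2% of the DNA replication windows and 34.7% of all. Among all genes called lower, the shares were 11.5% for TTTGAA and 35.8% for CCAAT, and among genes called higher 11.8% and 33.3%. Genes can have several windows, and each was counted.

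Stress programmes moved in several directions. Of 37 tested targets of NRF2, the factor of the oxidant response, 18 rose, 5 fell and 14 did not pass, with a median log2 fold change of 0.36. HMOX1, which breaks down heme, was at 0.424, 0.438 and 0.486 CPM in NSI against 13.3, 15.3 and 23.3 CPM in siFOXA1 (log2 fold change 5.26, SE 0.26, adjusted p 6.71e-07). SLC7A11, the cystine transporter, rose from 22.2 ± 2.22 to 62 ± 3.6 CPM, and TXNRD1, thioredoxin reductase, from 339 ± 10.8 to 559 ± 21.3 CPM (SD, n = 3 each). NFE2L2, the gene of NRF2 itself, and NQO1, a quinone reductase, were singled out after their values were seen and rose from 17.8 to 42.9 CPM and from 3.77 to 9.25 CPM. FTL, the ferritin light chain, fell from 175 ± 18.4 to 101 ± 5.75 CPM while the heavy chain FTH1 rose from 25.6 to 65.4 CPM; both have many pseudogenes that can share their reads.

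Of 44 genes of the ATF4 and unfolded protein responses, 21 rose, 11 fell and 12 did not pass. DNAJB9, a chaperone cofactor of the endoplasmic reticulum, rose from 11 ± 0.589 to 32.5 ± 1.58 CPM, and DDIT4, an inhibitor of mTOR, from 8.54 ± 0.628 to 21.4 ± 6.15 CPM (SD, n = 3 each). PDIA4, a disulphide isomerase of the same compartment, was at 306, 321 and 329 CPM in NSI against 78.8, 71.3 and 64.2 CPM in siFOXA1 (log2 fold change −2.16, SE 0.09, adjusted p 2.47e-07). The chaperones HSP90B1 and CALR did not pass (log2 fold changes −0.06 and −0.02, both positive without siFOXA1 replicate 3 at 0.02 and 0.05). PDIA4 thus fell in a list in which most called members rose.

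Of 37 hypoxia and glycolysis genes, 11 rose, 6 fell and 20 did not pass. PFKFB3, an activator of glycolysis, was at 10.6, 10.4 and 14.3 CPM in NSI against 91.9, 88.3 and 110.5 CPM in siFOXA1 (log2 fold change 3.04, SE 0.14, adjusted p 4.33e-07). EPAS1, the gene of HIF-2 alpha, rose from 20.1 ± 2.15 to 61.8 ± 5.88 CPM (SD, n = 3 each). VEGFA, the vascular growth factor, was at 30.1, 27.9 and 56.6 CPM in siFOXA1, highest in replicate 3, and at 15.7, 17.1 and 19.8 CPM in NSI. SLC2A3 and SLC2A1, glucose transporters, fell from 2.45 ± 0.561 to 0.281 ± 0.122 CPM and from 23.6 ± 2.27 to 16.3 ± 3.57 CPM. Without siFOXA1 replicate 3, 11 members fell instead of 6 and the median went from 0.17 to −0.03.

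Of 30 FOXO targets, 11 rose, 9 fell and 10 did not pass. FBXO32, a ubiquitin ligase of muscle wasting, was at 5.3, 6.1 and 4.73 CPM in NSI against 216, 204 and 199 CPM in siFOXA1 (log2 fold change 5.26, SE 0.10, adjusted p 8.89e-09). SESN3, a stress sensor, was at 1376, 1454 and 1806 CPM and 524, 476 and 596 CPM, a change the other way (log2 fold change −1.54, SE 0.12, adjusted p 1.12e-05). TRIB1, a pseudokinase, fell from 303 ± 17.4 to 101 ± 9.57 CPM and IRS2, an insulin receptor substrate, from 74.3 ± 5.81 to 38.7 ± 3 CPM (SD, n = 3 each).

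Of 46 genes of cholesterol and fatty acid synthesis, 15 rose, 9 fell and 22 did not pass. SREBF1, the factor that switches on fatty acid synthesis, rose from 117 ± 4.27 to 231 ± 17.2 CPM, and the cholesterol exporters ABCA1 and ABCG1 from 9.53 ± 1.24 to 19.8 ± 1.71 CPM and from 30.9 ± 4.68 to 79.2 ± 8.5 CPM (SD, n = 3 each). ACSL3, which activates fatty acids, fell from 431 ± 27.4 to 229 ± 23.3 CPM and ACLY, which supplies acetyl groups, from 133 ± 6.73 to 85.9 ± 8.06 CPM. FASN, fatty acid synthase, was at 3736, 4082 and 2109 CPM in siFOXA1 against 2665, 2521 and 2636 CPM in NSI and did not pass (adjusted p 0.199). Without siFOXA1 replicate 3, its lowest library, it was called higher, with a log2 fold change of 0.58 (adjusted p 0.000455).

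Genes of RNA binding proteins were counted in 3 lists. Of 31 hnRNP genes, which package nascent transcripts, 20 fell and 0 rose, with a median of −0.26, and 0 reached a log2 fold change of −1. In the fit of all 12 libraries 13 fell. HNRNPA1 was at 592, 632 and 683 CPM in NSI against 365, 368 and 409.8 CPM in siFOXA1 (log2 fold change −0.74, SE 0.08, adjusted p 7.99e-05); it has many pseudogenes. Of 14 SR proteins, activators of splicing, 7 fell, 2 rose (SRSF5 and TRA2A) and 5 did not pass. The call of TRA2A, named after its values were seen, was lost without NSI replicate 1 (adjusted p 0.111), without siFOXA1 replicate 1 (0.0904) and with library size alone (0.0709), which left 1 that rose. SRSF1, the best known of them, was at 216, 222 and 228 CPM in NSI against 184, 172 and 169.8 CPM in siFOXA1, without overlap. SRSF8 fell most among those expressed at 10 CPM or more, from 75.3 ± 1.79 to 36.8 ± 2.08 CPM, and SRSF5 rose from 64.3 ± 4.45 to 77.9 ± 2.98 CPM. Of 38 tissue-specific splicing regulators, 13 rose and 10 fell; in the fit of all 12 libraries 6 fell. RBM24, a muscle splicing factor, was at 0.886, 1.08 and 0.956 CPM in NSI against 7.26, 7.61 and 10 CPM in siFOXA1 (log2 fold change 3.09, SE 0.16, adjusted p 9.93e-07), and MBNL2, a muscleblind protein, rose from 18.1 ± 4.54 to 44.9 ± 3.44 CPM.

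Of 40 chromatin partners of FOXA1, 12 fell, 6 rose and 22 did not pass. Corepressors of the TLE family, which FOXA proteins can recruit, moved apart. TLE3 was at 277, 277 and 279 CPM in NSI against 97, 96.7 and 84.2 CPM in siFOXA1 (log2 fold change −1.58, SE 0.07, adjusted p 4.96e-07). TLE1 rose from 13.2 ± 1.19 to 33.7 ± 4.11 CPM and TLE4 from 1.75 ± 0.347 to 4.87 ± 0.468 CPM (SD, n = 3 each). NCOR1, a nuclear receptor corepressor, rose from 284 ± 5.1 to 391 ± 7.86 CPM, and EZH2, the Polycomb methyltransferase, fell from 36.8 ± 1.68 to 24.4 ± 3 CPM.

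ETS factors and genes associated with ERG did not change in 1 direction. Of 20 tested ETS factors, 7 rose and 2 fell, SPDEF and ERF, the second chosen after its values were seen; without NSI replicate 3, or without siFOXA1 replicate 2, 4 rose. ELF1 rose from 18.5 ± 1.07 to 39.4 ± 2.47 CPM and ETS2 from 5.1 ± 0.44 to 9.13 ± 0.474 CPM (SD, n = 3 each). Of 24 ERG-associated genes, 11 fell, 7 rose and 6 did not pass, and in the fit of all 12 libraries 7 fell. PLA1A, a phospholipase high in tumours with ERG, was at 104, 99.2 and 119 CPM in NSI against 227, 252 and 239 CPM in siFOXA1 (log2 fold change 1.16, SE 0.08, adjusted p 5.33e-06). CRISP3, a secreted protein, rose from 540.4 ± 10.4 to 917 ± 100.1 CPM, TDRD1, a germ cell protein often high in tumours with ERG, was at a mean of 270.3 CPM (NSI) and 278 CPM (siFOXA1) and did not pass, and PEX10, a peroxisome protein, fell from 60.3 ± 5.11 to 24.9 ± 1.2 CPM.

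**Figure D5:**
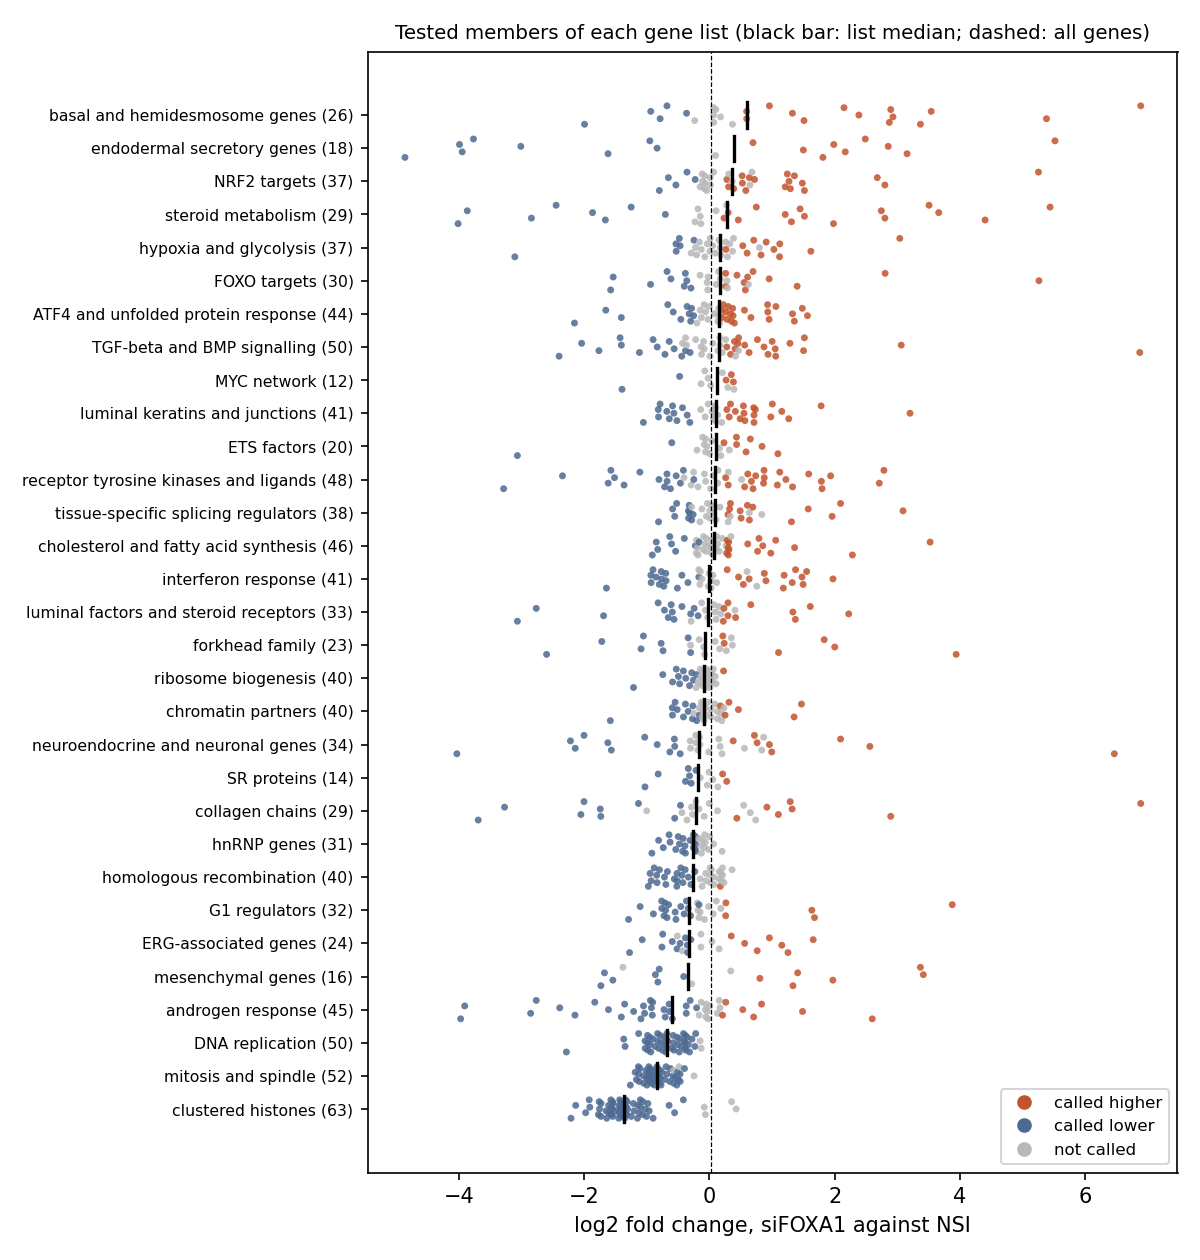
Log2 fold change of siFOXA1 against NSI for each tested member of the 31 gene lists, ordered by list median, with the number tested in brackets; orange points are called higher, blue points called lower, grey points not called, black bars list medians and the dashed line the median of all genes tested, 0.02. Members of the histone, mitosis and DNA replication lists lie almost all to the left, while most other lists spread to both sides.

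Interferon response genes fell and rose in near equal numbers, and ribosome biogenesis genes mostly did not pass. Of 41 interferon genes, 15 fell and 14 rose, with a median of −0.01; IFI44 rose from 0.892 ± 0.119 to 3.51 ± 0.683 CPM and OAS1 from 3.94 ± 0.0568 to 11.6 ± 0.895 CPM, while HERC5 (mean ± SD, n = 3 each) fell from 7.79 ± 1.16 to 2.49 ± 0.386 CPM. Of 40 ribosome biogenesis genes, 12 fell, 1 rose and 27 did not pass. POLR1C, a polymerase subunit named after its values were seen, was the 1 that rose, and 0 rose without NSI replicate 2 or 3, without siFOXA1 replicate 2 or 3, or with DESeq2. RRP1B fell from 98 ± 10.8 to 42.2 ± 1.25 CPM and NPM1, nucleophosmin, from 451 ± 41.9 to 324 ± 12.3 CPM. Of 12 genes of the MYC network, 3 rose, 2 fell and 7 did not pass.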

How the data were processed

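Total RNA of VCaP cells 72 hours after transfection was sequenced in 3 siFOXA1 and 3 NSI libraries, and each deposited table gives 1 column of counts per gene for 60106 genes. The authors' values are expected counts: per the file headers, featureCounts 2.0.0 assigned read pairs on the reverse strand to exons of the GENCODE basic annotation on GRCh37, with reads that map to several places or overlap several genes counted as fractions. The submitters' processing notes also name STAR 2.7.3a. Fractional counting divides reads among similar gene copies, so values of paralogs depend on each other. The deposited expected counts were rounded to whole numbers here.

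Genes were filtered with filterByExpr (minimum count 10), scaled by TMM and tested with the quasi-likelihood test of edgeR 4.0.16 in R 4.3.3 on the 6 VCaP libraries, with p-values adjusted by Benjamini-Hochberg over all genes tested and a threshold of 0.05. Any adjusted p in the text is from this test unless another is named. The script was tested on simulated counts. Replicates within a group differed by more than sampling noise (chi-square per degree of freedom 9.8 to 35.9). The alternatives were RLE, upper-quartile and unscaled library sizes, no filter or 1 CPM in 3 libraries, DESeq2 1.42.0, a minimum log2 fold change of 1, the replicate number as a block, all 12 libraries, no mitochondrial genes, and leaving out each library.

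The members, gene lists and tests were chosen with earlier results of these data known, so a list's direction is no independent evidence. Genes named are key factors and, in each list, the 3 members with the highest CPM and up to 4 called rises and 4 falls, the largest among those averaging 1 CPM or more whose groups do not overlap. Over all genes, the 12 largest rises and falls were taken by the same rule from a mean of 5 CPM up. Promoter letters were searched in RefSeq windows (GRCh38.p14) of 12485 tested genes, and Wilson intervals cover counting error only. Splicing was not analysed here, and a few genes are not reported here.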

Additional observations from a re-analysis of the deposited data

How the results depend on the processing

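The count of called genes ran from 8531 in the fit of all 12 libraries to 11482 with the replicate block (5795 higher, 5687 lower), and from 8734 to 9975 when 1 library was left out. With a minimum log2 fold change of 1 it was 2852, of which 1763 were higher and 1089 lower. Upper-quartile scaling split the calls into 5861 higher and 4714 lower, and moved the median of all genes from 0.02 to 0.07. FOXA1 was at −2.60 with the replicate block and between −2.67 and −2.53 when 1 library was left out. Deviations of same-numbered libraries correlated at 0.0639, 0.0364 and 0.279, so the numbers were not taken to pair all libraries, although the replicate 3 libraries deviated together. Of 268 named genes that were called, 241 kept direction and call in every setting that tested them, other than the minimum change. FOXA1 is among the 268 but was not counted in the 241.

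The genes whose direction turned were not called. CALR turned to 0.025 (upper-quartile), 0.0027 (1 CPM filter), 0.0069 (all 12 libraries) and 0.0056 (protein-coding genes), and lay between −0.078 and 0.053 when 1 library was left out. In the same 4 settings NCL turned to 0.043, 0.022, 0.026 and 0.025 and SRSF6 to 0.040, 0.018, 0.023 and 0.021; with 1 library left out they lay between −0.114 and 0.047 and between −0.044 and 0.023. ELK4 turned to 0.0077 with upper-quartile scaling. ENO1 turned to −0.0055 with library size alone, −0.0065 with DESeq2 and −0.0010 without a filter, and lay between −0.091 and 0.064 with 1 library left out. KLK3 (−0.319 to 0.240), HSP90B1 (−0.141 to 0.019), CHGA (−0.304 to 0.044) and MYC (−0.161 to 0.066) also lay on both sides of 0 when 1 library was left out.

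The median of the mesenchymal list turned to 0.470 (DESeq2), 0.442 (no filter) and 0.431 (all 12 libraries), where other numbers of members were tested. It was −0.777 with the 1 CPM filter and between −0.468 and −0.128 with 1 library left out. That of the endodermal list turned to −0.0445 with the 1 CPM filter. With 1 library left out it ran from −0.442 to 0.690, that of the hypoxia list from −0.0338 to 0.256 and that of the collagens from −0.292 to 0.00751. For these lists and genes the cause was not tested. Counting only the bases before the start, fewer windows held each motif: TGTTTAC 2.27% of windows of all genes tested, TTTGAA 9.29% (10.3% of genes called higher, 9.70% lower) and CCAAT 32.8% (31.3%, 34.1%). The spread between 3 libraries a group sets the precision of each fold change, and genes under the filter were not tested.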

Other observations

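The gene families below were chosen after their values were seen. Their shares stand against 23.3% of all genes tested lower and 22.5% higher. Protein genes of the cytosolic ribosome moved together: 72 of 81 tested fell and 0 rose, with a median log2 fold change of −0.52 and a range of −1.40 to 0.04. EEF1A1, the elongation factor that brings transfer RNA to the ribosome, fell from 9135 ± 1609 to 6110.0 ± 875 CPM (SD, n = 3 each; log2 fold change −0.58, edgeR adjusted p 0.0101). Ribosomal proteins and EEF1A1 have many pseudogenes with which reads can be divided. Of 1819 processed pseudogenes 377 fell (20.7%) and 168 rose (9.24%), both below the shares of all genes. Their median log2 fold change was −0.15, against 0.02 over all genes tested. Of 77 mitochondrial ribosomal protein genes 35 fell (45.5%) and 4 rose (5.19%). Of 99 nuclear genes of the respiratory complexes 27 fell (27.3%) and 12 rose (12.1%). Of 13 protein genes of the mitochondrial genome 3 rose (23.1%) and 1 fell (7.69%). Of 14 host genes of small nucleolar RNAs 7 fell and 0 rose.

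Most tested keratin genes went the other way: of 13, 9 rose (69.2%) and 2 fell (15.4%), with a median log2 fold change of 2.11. A keratin near 0 in NSI could pass the filter only through its siFOXA1 counts. The share and the median of this rise can thus be partly set by the filter. The luminal keratins KRT8 and KRT18, markers of the line, did not share this rise. KRT8 was at a mean of 230 CPM (NSI) and 243 CPM (siFOXA1). KRT18 was at 122, 116 and 137 CPM in NSI against 81.9, 81.1 and 77.4 CPM in siFOXA1. Of 56 protocadherin genes, neural adhesion genes in clusters with shared exons, 21 fell (37.5%) and 5 rose (8.93%). Of 1284 lincRNA genes 316 rose (24.6%) and 152 fell (11.8%), with a median of 0.16. The share that rose was near the 22.5% of all genes tested. Most other noncoding classes also rose more often than they fell, such as antisense genes (19.2% against 10.1%). Processed pseudogenes went the other way, as given above. The long nuclear RNA MALAT1 was at 18847, 21039 and 17024 CPM in NSI against 35836, 34744 and 38358 CPM in siFOXA1 (log2 fold change 0.94, SE 0.12, adjusted p 0.000154). NEAT1, the RNA that builds paraspeckles, rose from 1569 ± 571 to 4625 ± 1212 CPM (SD, n = 3 each). DRAIC and PCAT14, prostate long noncoding RNAs, fell from 32.1 ± 3.78 to 6.95 ± 0.891 CPM and from 307 ± 4.88 to 71.4 ± 7.41 CPM. Noncoding small and ribosomal RNA also took a larger share of counts in siFOXA1, as given above, and its part in these values was not tested.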
